A study of Mus musculus with 6 samples.

Results

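A set of 9 enzyme genes of the mouse corneal epithelium, the outermost layer of the transparent front of the eye, was followed across RNA sequencing libraries of epithelial sheets. They are the aldehyde dehydrogenase genes Aldh3a1, Aldh1a1, Aldh1a3, Aldh2, Aldh3a2, Aldh3b1 and Aldh9a1, the transketolase gene Tkt and the creatine kinase gene Ckb. The members were chosen by symbol, and all 9 were found among the 25006 genes of the deposited table of counts per gene. The sheets came from mice whose genotype is given as EphA2 null (3 libraries, from animals described in the series design as EphA2-/-) or wild type (3 libraries). EphA2 is a receptor tyrosine kinase for ephrin-A ligands. The labels give no age, sex, strain, allele or treatment. Nor do they say whether each library is from its own animal, so the p-values rest on a spread between samples that may be technical.

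Aldehyde dehydrogenases oxidise reactive aldehydes, such as those formed when light damages membrane lipids, to the matching carboxylic acids, with NAD or NADP as the electron acceptor. In the cornea a few soluble enzymes accumulate to a level thought to exceed what catalysis needs and are called corneal crystallins, by analogy with the crystallins of the lens. In mice these are chiefly Aldh3a1 and transketolase, and in rabbits Aldh1a1 is a further one. Transketolase moves carbon units between sugars in the pentose phosphate pathway, which also yields NADPH. Creatine kinases pass phosphate between ATP and creatine.

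Some of these genes have close relatives, which bears on how reads are assigned. Aldh1a1 and its neighbour Aldh1a7 lie on chromosome 19 and have coding sequences of equal length, 1506 bases, that differ at 126 of them (91.6% identity), with a longest identical run of 100 bases. The first 60 coding bases, from the GENCODE M21 transcripts, are shown with the differences in capitals. This stretch holds 3 differences, fewer for its length than the whole coding sequence.
Aldh1a1: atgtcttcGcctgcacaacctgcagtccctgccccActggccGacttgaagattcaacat
Aldh1a7: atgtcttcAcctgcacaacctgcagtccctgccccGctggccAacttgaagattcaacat
Over the annotated transcripts of Aldh1a1, 3.06% of all windows of 50 bases also occurred in Aldh1a7. The share of such windows found in any other gene was 8.97% for Aldh3b1 (mostly Aldh3b3), 9.98% for Ckb (mostly the pseudogene Gm12892), 1.56% for Aldh2 and 1.15% for Aldh1a3. It was 0 for Aldh3a1, Aldh3a2, Aldh9a1 and Tkt. Neither the read length nor the strand setting of the counting is given in the sources used here. Aldh3a1 (11:61207537-61218421, plus strand) and Aldh3a2 (11:61223417-61267464, minus strand, both GRCm38) are tail-to-tail neighbours, 4995 bases apart, with no shared exon. On the same build, Aldh1a1 lies at 19:20492715-20643465 and Aldh9a1 at 1:167349991-167368532, both on the plus strand like Tkt at 14:30548359-30574720. On the minus strand lie Aldh1a3 at 7:66390890-66427517, Aldh2 at 5:121566027-121593824, Aldh3b1 at 19:3913491-3929808 and Ckb at 12:111669361-111672338. The exons of Aldh2 overlap Gm42879, on the opposite strand, over 130 bases.

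Promoter sequences (RefSeq, GRCm38.p6, the 250 bases upstream of an annotated start) were listed for 6 of the 9 genes, and 3 are shown because these genes mark the extremes of what follows. Tkt was among the most abundant transcripts, Aldh1a1 varied in the direction opposite to Tkt, and Ckb was close to undetected. Capitals mark matches on either strand to 3 promoter motifs. These are the TATA box, searched as TATAAA, the CCAAT box, searched by its name, and the GC box, searched as GGGCGG.
Tkt, chr14:30548881-30549130, plus strand: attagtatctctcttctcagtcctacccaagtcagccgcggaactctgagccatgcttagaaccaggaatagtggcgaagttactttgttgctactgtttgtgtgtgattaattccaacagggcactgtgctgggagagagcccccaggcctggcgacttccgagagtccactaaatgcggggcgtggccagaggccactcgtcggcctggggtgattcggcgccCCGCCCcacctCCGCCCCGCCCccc
Aldh1a1, chr19:20601718-20601967, plus strand: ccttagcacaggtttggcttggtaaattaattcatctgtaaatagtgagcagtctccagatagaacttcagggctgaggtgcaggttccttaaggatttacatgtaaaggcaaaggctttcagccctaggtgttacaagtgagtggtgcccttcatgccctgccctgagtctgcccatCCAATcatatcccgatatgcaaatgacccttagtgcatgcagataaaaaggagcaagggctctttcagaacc
Ckb, chr12:111672339-111672588, minus strand: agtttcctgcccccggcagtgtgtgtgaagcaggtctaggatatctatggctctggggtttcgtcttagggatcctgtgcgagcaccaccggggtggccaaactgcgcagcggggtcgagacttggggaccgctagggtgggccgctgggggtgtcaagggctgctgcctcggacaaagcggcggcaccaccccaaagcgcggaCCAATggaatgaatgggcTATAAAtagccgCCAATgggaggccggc
The Tkt window, at a start within the annotated gene, held 3 matches to GGGCGG, of which a pair overlaps, and no match to the other motifs. The Aldh1a1 window shown, at a start within the gene, held 1 CCAAT. A further Aldh1a1 window is listed at 19:20492333-20492582, with 42.8% G or C and 0 matches to any of the 3 motifs. The Ckb window held 1 TATAAA and 2 CCAAT. Of 32536 such windows of all genes, 33.0% held GGGCGG, 33.8% CCAAT and 12.3% TATAAA. G or C made up 59.6% of the bases for Tkt, 46.4% for the Aldh1a1 window shown and 62.8% for Ckb. A match is a run of letters and says nothing of a bound factor.

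Total counts ran from 15308013 to 27586942 per library. Levels are given as CPM (counts scaled to a common library size), computed with TMM normalisation factors, which adjust library totals for differences in composition. Epha2 itself had 285, 652 and 578 CPM in the EphA2 null-labelled libraries 1, 2 and 3, and 298, 253 and 563 CPM in wild-type libraries 1, 2 and 3, a log2 fold change of 0.44 ± 0.39 (SE; 95% interval -0.47 to 1.36; adjusted p = 0.9996, edgeR). Its level does not show the genotype, so every genotype direction below rests on the label. The corneal and basal epithelial markers Krt12, Krt5, Krt14, Pax6, Trp63 and Klf5 were all present. Markers of stromal keratocytes, which can carry the same crystallins, were close to absent: all 10 were under 1 CPM on average, Kera and Lum had 0 counts, and the 10 together reached 0.963 to 1.18 CPM in the EphA2 null-labelled libraries and 0.816 to 2.5 CPM in wild type. The libraries separated by the number in the sample title, which lies in a higher range for the EphA2 null-labelled libraries 2 and 3 and wild type 3, and in a lower range for the EphA2 null-labelled library 1 and wild type 1 and 2. What the number stands for is not stated. The EphA2 null-labelled libraries 2 and 3 share 1 number, and so do wild type 1 and 2. The titles also carry a letter after the number, which differs between the libraries that share a number.

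The levels of the 9 genes, divided by the length of each gene's principal transcript, ran from among the highest of all genes to under 1 CPM per kilobase. Aldh3a1 stood at 11079 ± 2949 CPM per kilobase (mean and SD over the 6 libraries), the third highest of all genes, between the keratin genes Krt5 at 12278 and Krt12 at 7877 CPM per kilobase. Tkt followed at 2243 ± 322 CPM per kilobase, rank 19. Aldh3a1 took 1.44% to 2.45% and Tkt 0.602% to 0.808% of all counts of a library. The next members were far lower: Aldh1a3 at 77.2 ± 16.7, Aldh1a1 at 74.2 ± 35.2 and Aldh2 at 27.0 ± 6.90 CPM per kilobase. Aldh3a2 (11.9 ± 1.38), Aldh9a1 (11.1 ± 2.11) and Aldh3b1 (4.51 ± 1.25 CPM per kilobase) came after them, and Ckb was lowest at 0.189 ± 0.0811 CPM per kilobase. Aldh1a3 and Aldh1a1 lay within each other's spread, as did Aldh3a2 and Aldh9a1. With the length of all annotated exons in place of the principal transcript, Tkt stood at 983, Aldh1a3 at 57.6 and Aldh1a1 at 35.4 CPM per kilobase.

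Among all 21 mouse aldehyde dehydrogenase genes, Aldh3a1 alone made up 94.9% to 97.6% of the summed level per kilobase in each library. Of the 14 that are not members, Aldh3b2, an epithelial relative of Aldh3b1, was highest at 124 ± 15.4 CPM per kilobase, above Aldh1a3 and Aldh1a1. Aldh3b2 shares 24.2% of its windows of 50 bases with other genes, mostly Aldh3b3, so its level is uncertain. Aldh6a1, a mitochondrial enzyme of valine breakdown, stood at 24.3 ± 2.82 and Aldh7a1 at 12.3 ± 1.28 CPM per kilobase. Aldh1a2, another retinaldehyde dehydrogenase gene, was represented by 2 counts in all EphA2 null-labelled libraries together and by 2 in all wild-type ones.

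**Figure D1:**
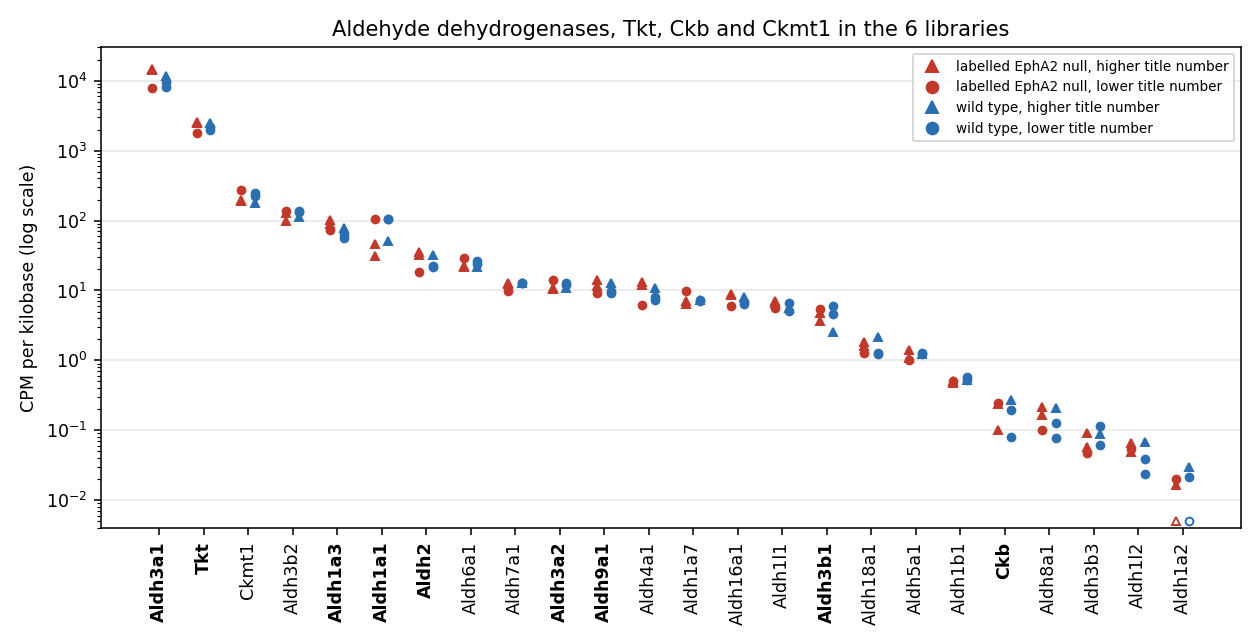
Level per kilobase of transcript (CPM per kilobase, log scale) of the 21 aldehyde dehydrogenase genes, Tkt, Ckb and the mitochondrial creatine kinase gene Ckmt1, ordered by mean, in each of the 6 libraries (red, labelled EphA2 null; blue, wild type; triangles, higher title numbers; circles, lower ones). The names of the 9 genes described are in bold, open symbols on the bottom line are libraries with 0 counts, and Aldh3a1 at 11079 and Tkt at 2243 CPM per kilobase stand above all others.

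Between the genotypes, none of the 8 genes that could be tested passed (Ckb had too few counts). Of the 8, 0 had an adjusted p under 0.05 and 0 an unadjusted p under 0.05 in edgeR's quasi-likelihood test, and 0 passed in DESeq2 or limma voom. Over all 12847 tested genes edgeR called 1 (0.00778%), and 1.18% had an unadjusted p under 0.05, while DESeq2 called 0.0272% of its genes. Of the 8 genes, 6 had a log2 fold change (EphA2 null-labelled over wild-type libraries) above 0 and 2 below, with a median of 0.11 against 0.01 for all genes, and 0 of the 8 separated the genotypes without overlap, against 3.73% of all tested genes. With a term for the title number range, 0 of the 8 were called by edgeR or DESeq2 (0.00778% and 0.124% of all genes), and 1, Aldh1a3, had an unadjusted p under 0.05, against 3.87% of all genes, and the median over the 8 was 0.03.

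By title number, all 8 tested genes differed. In the libraries with higher numbers 5 were higher (Aldh3a1, Aldh2, Aldh9a1, Tkt and Aldh1a3) and 3 lower (Aldh1a1, Aldh3b1 and Aldh3a2) in edgeR with genotype as a term, adjusted over all genes. This split was taken up because the libraries separated by it, and 44.7% of all tested genes passed, 24.6% higher and 20.1% lower, so the p-values describe these libraries and give no independent support. Levels did not overlap between the ranges for 7 of the 8, against 59% of all tested genes. Without wild type 2 or without the EphA2 null-labelled library 1, 2 of the 8 were called, without wild type 3 there were 3, without wild type 1 there were 5, and without the EphA2 null-labelled library 3 or 2 there were 6 or 7. Marker levels also moved with the title numbers, in both directions. All 6 tested of 8 leukocyte markers were lower in the higher range, and the 8 together reached 2.88 to 5.74 CPM there and 18.4 to 27.7 CPM in the lower range. Of the 6 conjunctival markers, the goblet cell mucin gene Muc5ac (log2 difference -4.95, adjusted p = 0.00232, edgeR) and Krt7 (-0.63, adjusted p = 0.0342, edgeR) were lower, and the 6 together reached 3298 to 6026 CPM in the higher and 4917 to 6316 CPM in the lower range. Each gene of these 2 lists had counts in some library, although the T cell marker Cd3e had 0 counts in the EphA2 null-labelled library 2 and wild type 3. Of 4 corneal endothelial markers, 3 were tested. Slc4a11 was higher in the higher range (1.04, adjusted p = 0.00675, edgeR). Alcam (0.19, adjusted p = 0.180) and Col8a1 (-0.87, adjusted p = 0.363, both edgeR) were not called and differed in sign. The 4 together reached 279 to 372 CPM in the higher and 256 to 272 CPM in the lower range, mostly from Alcam, which averaged 271.5 CPM. The vessel marker Pecam1 had 47 counts in the higher and 14 in the lower range. That is a depth-adjusted ratio of 3.24 (exact 95% interval 1.75 to 6.37, counting error only). Cdh5, the other vessel marker, had 0 counts in the higher and 1 in the lower range, too few to give a direction. The 10 keratocyte markers together reached 1.01 to 2.5 CPM in the higher and 0.816 to 1.25 CPM in the lower range. Among the 6 corneal and basal epithelial markers Klf5 was higher (0.89, adjusted p = 0.00861, edgeR). The other 5 were not called in edgeR, and of these only Krt14 had a log2 difference below 0 (-0.29). Krt5 (0.30 in edgeR) and Krt12 (0.24 in edgeR) were called in DESeq2, with adjusted p of 0.0119 and 0.0203. The 6 together reached 46715 to 49553 CPM in the higher and 38390 to 42291 CPM in the lower range. Most of that sum came from Krt5 and Krt12, which averaged 26975 and 14588 CPM. The part of these markers in the differences of the 9 genes was not tested. In sheets of mixed cells, fewer cells of a type and less RNA per cell cannot be told apart.

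**Figure D2:**
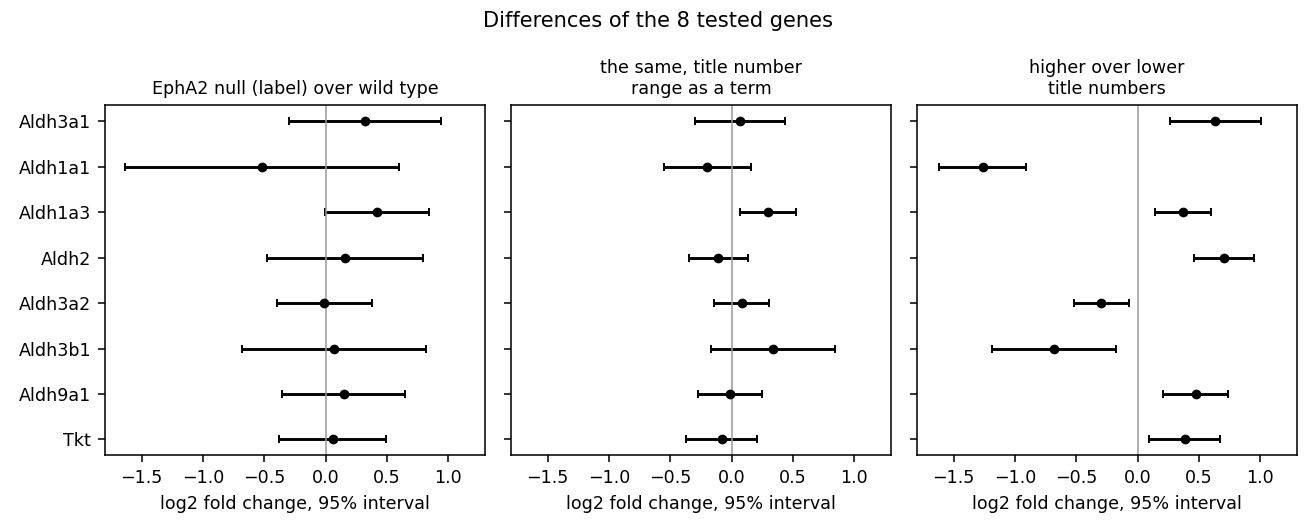
Log2 fold changes of the 8 tested genes with 95% intervals (edgeR, 3 libraries a group): EphA2 null-labelled over wild-type libraries (left), the same with a term for the title number range (middle), and higher over lower title numbers (right). All 8 intervals in the left panel include 0, and none of those in the right panel does, with Aldh1a1 farthest from 0 at -1.26.

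The Aldh3a1 level was 13807, 24697 and 25282 CPM in the EphA2 null-labelled libraries 1, 2 and 3, and 16547, 14182 and 20416 CPM in wild-type libraries 1, 2 and 3. The EphA2 null-labelled libraries spanned the wild type ones, with the lowest and the highest of the 6 values among them. The genotype means were 21262 ± 6463 CPM in the EphA2 null-labelled libraries and 17048 ± 3147 CPM in the wild-type group (SD, n = 3 each). The log2 fold change between the genotypes was 0.32 ± 0.26 (SE; 95% interval -0.30 to 0.94; adjusted p = 0.9996, edgeR), so that anything from a 0.811-fold to a 1.92-fold level lies in the interval. With a term for the title number range it was 0.07 (-0.30 to 0.44). As a log2 ratio of mean CPM it was 0.29 within the higher and -0.15 within the lower title numbers. These values have opposite sign, but each has 1 library on one side. By title number the means were 23465 ± 2657 CPM in the libraries with higher title numbers and 14846 ± 1486 CPM in those with lower ones (SD, n = 3 each), a log2 difference of 0.63 ± 0.16 (SE; 95% interval 0.26 to 1.002; adjusted p = 0.0146, edgeR). That difference was 0.86 among the EphA2 null-labelled libraries and 0.41 among the wild type libraries. It no longer passed when wild type 2 was left out (0.59, adjusted p = 0.0719) or the EphA2 null-labelled library 1 (0.41, adjusted p = 0.220, both edgeR). Set against Krt12 in the same library, a ratio that needs no scaling between libraries, Aldh3a1 per kilobase was 1.39 to 1.73 times the Krt12 level in the higher range and 1.11 to 1.28 times in the lower.

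Transketolase ranked the 6 libraries in the same order as Aldh3a1, over a narrower range. Tkt stood at 5772, 8028 and 8323 CPM in the EphA2 null-labelled libraries 1, 2 and 3, and 6931, 6351 and 7973 CPM in wild-type libraries 1, 2 and 3. The 3 libraries with higher numbers lay within 7973 to 8323 CPM, and the lowest value was again that of the EphA2 null-labelled library 1. Its log2 fold change by genotype was 0.06 ± 0.19 (SE; 95% interval -0.38 to 0.49; adjusted p = 0.9996, edgeR), and -0.08 (-0.37 to 0.20) with the title number term. By title number it was 0.38 ± 0.13 (SE; 95% interval 0.09 to 0.67; adjusted p = 0.0373, edgeR). It did not pass without wild type 1 (0.43, adjusted p = 0.0509), wild type 2 (0.35, adjusted p = 0.148), wild type 3 (0.49, adjusted p = 0.0863) or the EphA2 null-labelled library 1 (0.26, adjusted p = 0.356), edgeR. It was also lost with library totals alone (0.27, adjusted p = 0.0733) and with upper quartile factors (0.26, adjusted p = 0.117), edgeR, under which the median of all genes shifted to -0.13. The ratio of Aldh3a1 to Tkt per kilobase was 4.77 to 5.73 in the higher and 4.16 to 4.46 in the lower range, and 4.46 to 5.73 in the EphA2 null-labelled libraries and 4.16 to 4.77 in wild type.

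**Figure D3:**
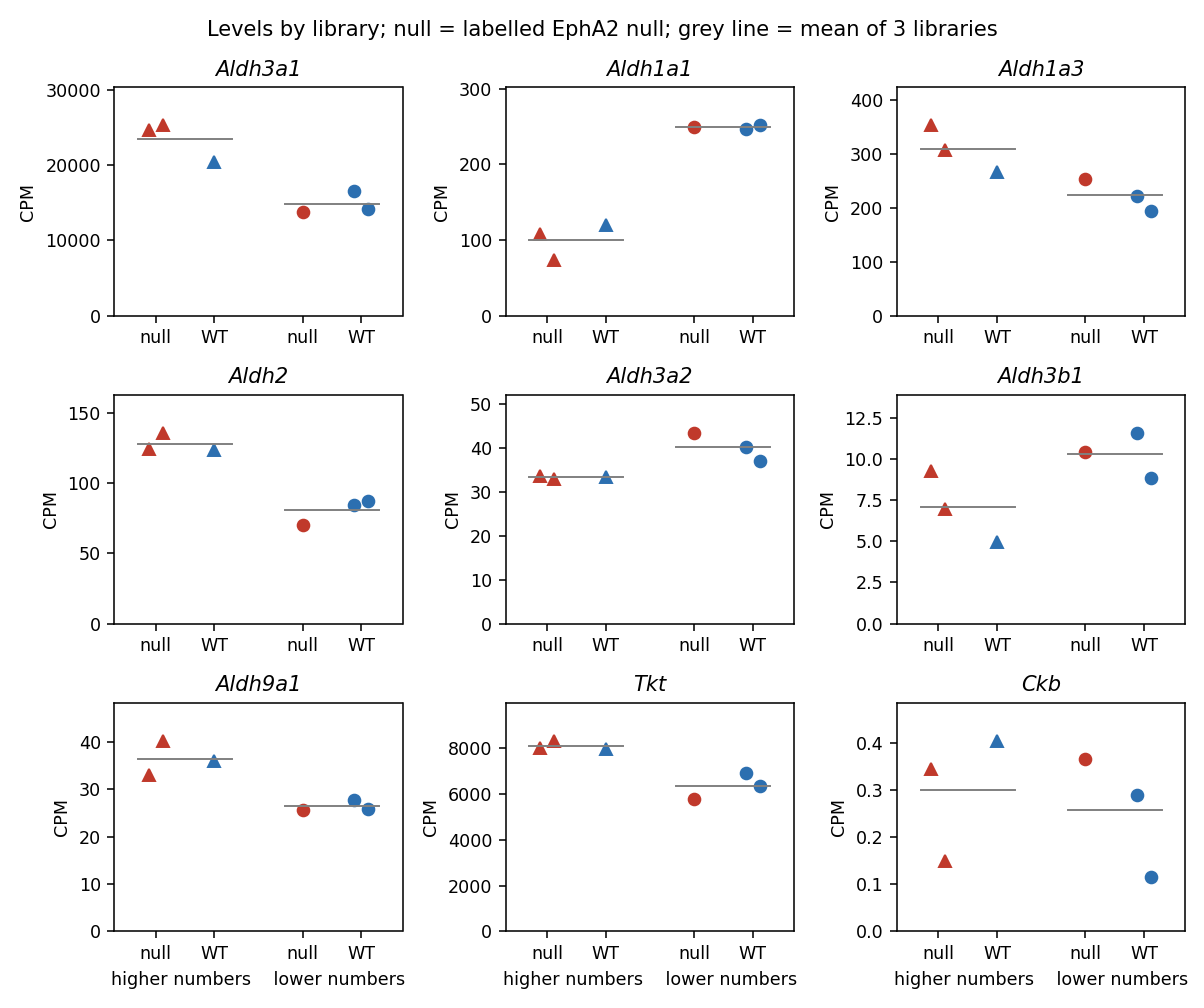
Levels (CPM, linear axes from 0) of the 9 genes in each library, with the higher title numbers left and the lower right, and within each the EphA2 null-labelled libraries (null, red) left of wild type (WT, blue). Grey lines are the means of the 3 libraries of a range; Aldh1a1 stands at 100.3 CPM in the higher and 249 CPM in the lower range, the reverse of Aldh3a1.

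Aldh1a1 and Aldh1a3 oxidise retinaldehyde to retinoic acid, the ligand of the retinoic acid receptors. Aldh1a1 had 250, 108 and 73.3 CPM in the EphA2 null-labelled libraries 1, 2 and 3, and 247, 252 and 120 CPM in wild-type libraries 1, 2 and 3. Each of the libraries with higher numbers had at most 120 CPM, and the 3 with lower numbers lay within 247 to 252 CPM whatever their genotype. The log2 difference by title number was -1.26 ± 0.16 (SE; 95% interval -1.62 to -0.91; adjusted p = 0.00182, edgeR), a 2.40-fold lower level with higher numbers. It was -1.46 among the EphA2 null-labelled libraries and -1.06 among the wild type libraries. This was the largest difference among the 8 genes, and the call held in all 15 alternatives run, from -1.48 to -1.06. The log2 fold change between the genotypes was -0.52 ± 0.48 (SE; 95% interval -1.64 to 0.60; adjusted p = 0.9996, edgeR), and -0.20 (-0.55 to 0.15) with the title number term. The genotype values were -0.40 within the higher and 0.0015 within the lower title numbers. Aldh1a7, the near copy, was not called by title number (-0.27, adjusted p = 0.170, edgeR), and the ratio of Aldh1a1 to Aldh1a7 per kilobase was 4.42 to 7.15 in the higher and 10.9 to 14.9 in the lower range.

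For Aldh1a3 the levels were 253, 353 and 306 CPM in the EphA2 null-labelled libraries 1, 2 and 3, and 221, 195 and 267 CPM in wild-type libraries 1, 2 and 3. Within each title number range the EphA2 null-labelled libraries were the higher ones, though the groups overlapped across ranges. Of the 8 genes it had the smallest p between the genotypes, with means of 304 ± 49.9 CPM in the EphA2 null-labelled libraries and 228 ± 36.7 CPM in the wild-type group (SD, n = 3 each) and a log2 fold change of 0.42 ± 0.18 (SE; 95% interval -0.0042 to 0.84; adjusted p = 0.9996, edgeR). It was 0.30 within the higher and 0.28 within the lower title numbers, and 0.29 (0.07 to 0.52) with the title number term, where the adjusted p was again 0.9996 (edgeR). By title number the log2 difference was 0.37 ± 0.10 (SE; 95% interval 0.14 to 0.60; adjusted p = 0.0175, edgeR), opposite in sign to that of Aldh1a1. It was lost without wild type 2 (0.31, adjusted p = 0.0865), wild type 3 (0.365, adjusted p = 0.105) or the EphA2 null-labelled library 1 (0.36, adjusted p = 0.156), and with upper quartile factors (0.25, adjusted p = 0.0640), edgeR. The ratio of Aldh1a3 to Aldh1a1 per kilobase was 1.53 to 2.86 in the higher range and 0.530 to 0.695 in the lower. Whether Aldh1a3 stood above or below Aldh1a1 in the lower range depended on the length used: in CPM, with no length, Aldh1a3 was the higher in the EphA2 null-labelled library 1 and the lower in wild type 1 and 2.

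Aldh2, the mitochondrial enzyme that clears acetaldehyde, had 70.5, 124 and 136 CPM in the EphA2 null-labelled libraries 1, 2 and 3, and 84.7, 87.6 and 124 CPM in wild-type libraries 1, 2 and 3. All 3 libraries with higher numbers exceeded 120 CPM and all 3 with lower numbers were below 90 CPM. The log2 difference by title number was 0.70 ± 0.11 (SE; 95% interval 0.46 to 0.95; adjusted p = 0.00252, edgeR) and was called in all 15 alternatives (0.52 to 0.87). Between the genotypes it was 0.16 ± 0.27 (SE; 95% interval -0.48 to 0.80; adjusted p = 0.9996, edgeR), but -0.11 with the title number term. Aldh9a1, which oxidises aminoaldehydes and takes part in carnitine synthesis, had 25.7, 33.1 and 40.2 CPM in the EphA2 null-labelled libraries 1, 2 and 3, and 27.6, 25.9 and 36.1 CPM in wild-type libraries 1, 2 and 3. It averaged 36.5 ± 3.57 CPM in the libraries with higher title numbers and 26.4 ± 1.07 CPM in those with lower ones (SD, n = 3 each), without overlap. The log2 difference by title number was 0.47 ± 0.11 (SE; 95% interval 0.21 to 0.73; adjusted p = 0.0121, edgeR), lost without wild type 2 (0.43, adjusted p = 0.0567), wild type 3 (0.50, adjusted p = 0.0571) or the EphA2 null-labelled library 1 (0.425, adjusted p = 0.135), edgeR. Between the genotypes it was 0.15 ± 0.21 (SE; 95% interval -0.36 to 0.65; adjusted p = 0.9996, edgeR), and -0.02 with the title number term.

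Aldh3a2 and Aldh3b1 act on long-chain fatty aldehydes at membranes. Aldh3a2 had 43.3, 33.5 and 32.8 CPM in the EphA2 null-labelled libraries 1, 2 and 3, and 40.0, 36.9 and 33.4 CPM in wild-type libraries 1, 2 and 3. It was the steadiest of the 8 genes, its highest value being 1.32 times its lowest, and it ran against its chromosomal neighbour Aldh3a1: the ratio of Aldh3a1 to Aldh3a2 per kilobase was 1092 to 1379 in the higher and 570 to 739 in the lower range. The log2 difference by title number was -0.30 ± 0.10 (SE; 95% interval -0.52 to -0.07; adjusted p = 0.0391, edgeR). It did not pass when any 1 of the 6 libraries was left out (-0.40 to -0.21, adjusted p of 0.0572 to 0.364, edgeR), or when libraries that share a title number were summed (-0.30, adjusted p = 0.0793, edgeR). Between the genotypes it was -0.01 ± 0.17 (SE; 95% interval -0.40 to 0.38; adjusted p = 0.9996, edgeR). Aldh3b1 had 10.5, 9.30 and 6.95 CPM in the EphA2 null-labelled libraries 1, 2 and 3, and 11.6, 8.86 and 4.93 CPM in wild-type libraries 1, 2 and 3. Its lowest value was that of wild type 3. This is the member whose ranges overlapped by title number, with 9.30 CPM in the EphA2 null-labelled library 2 above 8.86 CPM in wild type 2. The log2 difference by title number was -0.68 ± 0.22 (SE; 95% interval -1.18 to -0.18; adjusted p = 0.0355, edgeR). With the EphA2 null-labelled library 2 left out it still passed (-0.825, adjusted p = 0.0110, edgeR). With any other library left out it ranged from -1.06 to -0.39 (adjusted p of 0.0596 to 0.282, edgeR), and without a genotype term it was -0.54 (adjusted p = 0.0634, edgeR). Between the genotypes it was 0.07 ± 0.32 (SE; 95% interval -0.68 to 0.82; adjusted p = 0.9996, edgeR).

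Ckb, the cytosolic brain-type creatine kinase, was close to undetected. Its counts were 8, 7 and 4 in the EphA2 null-labelled libraries 1, 2 and 3, and 6, 2 and 6 in wild type 1, 2 and 3. No library stood out. The summed counts, 19 for the null-labelled and 14 for the wild-type libraries, gave a depth-adjusted ratio of 1.04 (exact 95% interval 0.493 to 2.24, counting error only), and 17 counts with higher against 16 with lower title numbers gave 1.02 (0.487 to 2.17). A difference of about 2-fold was therefore not detectable at this depth. The most abundant creatine kinase transcript was that of Ckmt1, the ubiquitous mitochondrial form, at 218 ± 37.3 CPM per kilobase, 643 to 3110 times the Ckb level in each library. Among the 6 other genes of creatine use, 3 were tested and 0 differed between the genotypes. By title number the creatine transporter gene Slc6a8 was higher (0.71, adjusted p = 0.00183) and Ckmt1 lower (-0.46, adjusted p = 0.00496), edgeR. Without the EphA2 null-labelled library 1, the Slc6a8 call held and the Ckmt1 call was lost.

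The neighbouring pathways showed the same contrast between the comparisons. In none of the lists was a gene called between the genotypes, either by edgeR or by DESeq2, and the medians lay between -0.07 and 0.15 on the log2 scale. Of the other aldehyde dehydrogenases, pentose phosphate enzymes, creatine genes and crystallins, 0 had an unadjusted p under 0.05 in edgeR. With the title-number term, 2 of 9 tested crystallin genes had an unadjusted p under 0.05 in edgeR, Idh1 (0.21) and Cryab (-0.45), against 3.87% of all genes, and 0 were called.

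By title number, the enzymes that share the pentose phosphate pathway with Tkt moved both ways. In this list 5 of 8 tested genes were called, in the lists that follow 4 of 10, 6 of 14 and 4 of 9, against 44.7% of all tested genes. Of the 8, Rpia (0.43, adjusted p = 0.0140) and H6pd (0.73, adjusted p = 0.00932) were higher with higher numbers, and G6pdx (-0.26, adjusted p = 0.0398), Taldo1 (-0.33, adjusted p = 0.0321) and Rpe (-0.51, adjusted p = 0.00397) were lower, edgeR. G6pdx encodes the entry enzyme of the pathway and Taldo1 the transaldolase that works beside transketolase. Tkt per kilobase was 7.89 to 10 times the Taldo1 level in the higher range and 4.95 to 6.07 times in the lower. The most abundant of the list, Taldo1 and G6pdx, stood at 323 ± 44.4 and 150 ± 14.7 CPM per kilobase, and Pgd at 95.6 ± 7.48. G6pdx and Rpe share 16.9% and 15.4% of their windows of 50 bases with other genes, so these are uncertain.

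Of the 10 tested aldehyde dehydrogenase genes that are not members, 3 were higher with higher title numbers and 1 lower, with a median of 0.13. Aldh4a1, which acts in proline breakdown, had a log2 difference of 0.75 (adjusted p = 0.00420), Aldh18a1, which acts in proline synthesis, 0.63 (adjusted p = 0.0193), and Aldh16a1 0.43 (adjusted p = 0.0142), edgeR. Aldh6a1 had -0.29 (adjusted p = 0.0294, edgeR), and Aldh3b2 was not called (-0.28, adjusted p = 0.0677, edgeR). Aldh4a1 shares 30.0% of its windows of 50 bases with an overlapping gene model and Aldh6a1 16.1%, so these are uncertain.

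Genes that supply and receive retinoic acid, the product of Aldh1a1 and Aldh1a3, gave 4 higher and 2 lower of 14 tested, with a median of -0.02. The higher ones were the receptor genes Rarg (0.89, adjusted p = 0.00242), Rara (0.98, adjusted p = 0.00440) and Rxra (1.13, adjusted p = 0.00219), and Cyp26b1 (1.13, adjusted p = 0.00208), which encodes an enzyme that degrades retinoic acid, edgeR. The lower ones were the alcohol dehydrogenase genes Adh1 (-0.54, adjusted p = 0.00578) and Adh7 (-0.66, adjusted p = 0.00257), edgeR, whose products can make retinaldehyde. Adh1 and Adh7 were also the most abundant of the list, at 1093 ± 218 and 441 ± 111 CPM per kilobase. In the higher range Adh1, Adh7 and Aldh1a1 were lower together, while Aldh1a3 was higher.

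Enzymes and other proteins known as crystallins in the cornea or lens of some species gave 1 higher and 3 lower of 9 tested, with a median of -0.33. The actin-severing protein gene Gsn, a corneal crystallin in zebrafish, was higher (0.52, adjusted p = 0.00656), and Idh1 (-0.51, adjusted p = 0.00319), Ppia (-0.35, adjusted p = 0.0307) and Cryab (-0.57, adjusted p = 0.0342) were lower, edgeR. Gsn, at 356 ± 82.5 CPM per kilobase, was the most abundant, followed by Ldha at 248 ± 16.9 and Cryab at 101 ± 32.4. Ppia, Cryab and Eno1 share 17.3%, 13.3% and 26.0% of their windows of 50 bases with other genes, so their levels are uncertain. Over the 5 lists, 21 genes were called by title number. Without the EphA2 null-labelled library 1 only 5 of the 21 passed (Slc6a8, Cyp26b1, Rarg, Rxra and Idh1), without wild type 2 there were 13, without wild type 3 there were 16, and with any other library left out 18 or 19. When libraries that share a title number were summed, 17 of the 21 passed, and Aldh6a1, G6pdx, Ppia and Cryab did not.

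**Figure D4:**
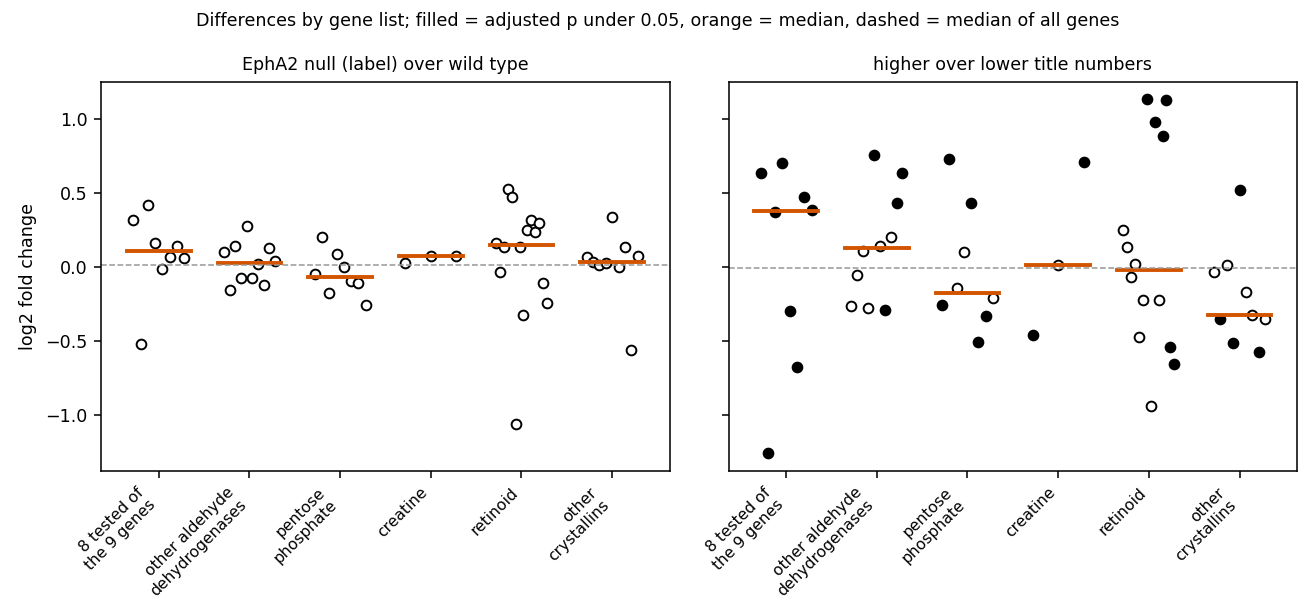
Log2 fold changes of each tested gene of the 6 lists (points; filled where the adjusted p is under 0.05 in edgeR), with list medians (orange) and the median of all genes (dashed), for EphA2 null-labelled over wild-type libraries (left) and higher over lower title numbers (right). No point is filled on the left; on the right the filled points lie on both sides of 0 in every list.

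The genes most like Aldh3a1, Tkt and Aldh1a1 across the 6 libraries were found among the 8840 genes that averaged 10 CPM or more, by the root-mean-square difference of log2 CPM after centring each gene on its mean. For Aldh3a1 they were Wars (0.0314), Agtrap (0.0390) and Coro1c (0.0401). For Tkt they were Cxxc1 (0.0132), Kpnb1 (0.0218) and Gcc1 (0.0229). For Aldh1a1 they were Rnase4 (0.162), Fmo2 (0.179) and Csrp2 (0.184). The measure is not scaled to a gene's own spread, so these distances are not comparable between the 3 genes. Centred log2 CPM ran from -1.09 to 0.68 for Aldh1a1, from -0.43 to 0.44 for Aldh3a1 and from -0.31 to 0.22 for Tkt. Coro1c, for instance, had 261.5, 481 and 499.5 CPM in the EphA2 null-labelled libraries 1, 2 and 3, and 329, 274 and 423 CPM in wild type 1, 2 and 3. With 6 libraries in 2 separate clusters, such likeness is a description of these libraries.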

How the data were processed

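Total RNA of corneal epithelial sheets was sequenced on an Illumina HiSeq, per the series design text. The authors deposited raw counts, whole numbers per Ensembl gene in 1 table of 6 samples; 0 columns of other samples were present. The sources used here give no aligner, counting program, strand setting or genome build. Names, positions and lengths came from GENCODE M21 (GRCm38), which had 24991 of the 25006 identifiers and was not checked against the authors' annotation. Lengths are those of the APPRIS principal transcript.

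Counts were scaled with TMM, filtered with filterByExpr (12847 genes left) and compared with edgeR 4.0.16 (glmQLFit and glmQLFTest, two-sided) in R 4.3.3. Genotype was the only term in 1 fit. The title number range, split at the largest gap between numbers, was compared with genotype as a term. Calls were made at an adjusted p under 0.05 (Benjamini-Hochberg, over all tested genes). The SE is the log2 fold change divided by the square root of F. Single values given within a title number range or among the libraries of 1 genotype are log2 ratios of mean CPM, not edgeR estimates. Each of these ratios has 1 library on one side, so it carries no measure of spread. DESeq2 1.42.0 and limma 3.58.1 (voom) were alternatives, with other normalisation factors, other filters and each library left out. No pair of libraries had counts within sampling noise (lowest chi-square over its degrees of freedom, 11.2). The edgeR step was also run on simulated data. Its recovery of simulated differences is not given here, so that run is no measure of power for these comparisons. The members, lists and the title number split were chosen with earlier results of these data known. All 9 genes are named; of the other lists, called genes and up to 3 of the highest level per length. Idh1 and Cryab (genotype), Aldh1a2, Aldh1a7, Eno1 and single marker genes are named outside this rule, after their values were seen. A result that needs a withheld item is not reported here.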

Additional observations from a re-analysis of the deposited data

How the results depend on the processing

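Between the genotypes, 0 of the 9 genes were called in any alternative run: other normalisation factors, other filters, DESeq2, limma voom, a title-number term, summed libraries and each library left out. Over all genes 1 was called in edgeR, against 5 in DESeq2, 17 in DESeq2 with a title-number term and 0 with libraries that share a title number summed. The genotype log2 fold changes near 0 changed sign. With a title-number term in edgeR, with that term in DESeq2 and with summed libraries, they were -0.108, -0.106 and -0.0699 for Aldh2, 0.081, 0.0827 and 0.072 for Aldh3a2, -0.0174, -0.0154 and -0.00967 for Aldh9a1, and -0.0831, -0.0816 and -0.0793 for Tkt. With 1 library left out they ran from -0.0203 to 0.40 for Aldh2, from -0.15 to 0.0607 for Aldh3a2, from -0.21 to 0.36 for Aldh3b1, from -0.0241 to 0.30 for Aldh9a1 and from -0.04 to 0.205 for Tkt. Without a change of sign they ran from -1.19 to -0.207 for Aldh1a1, from 0.173 to 0.55 for Aldh3a1 and from 0.30 to 0.54 for Aldh1a3. The cause was not tested. By title number, 8 of the 9 genes were called, and 2 to 7 with 1 library left out, against 5740 of all genes and 1103 to 5803. The lowest counts for all genes came without the EphA2 null-labelled library 1. With upper quartile factors and with library totals alone the median of all genes was -0.13, and 39.5% and 40% of called genes were higher, against 54.9% with TMM; 6 and 7 of the 8 genes were called. Aldh1a1 and Aldh2 were called in all 15 alternatives. No direction by title number changed. No paired analysis was possible because the labels give no number that pairs a library of one genotype with one of the other; the fits with a title-number term compare the genotypes within the ranges. Ckb was limited by depth, with 33 counts in all.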
